A study of Mus musculus with 15 samples.

Results

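The genes described here are 7 that mark the intercalated cells of the renal collecting duct and serve their acid-base transport: Atp6v1b1, Atp6v0d2, Atp6v1g3, Slc4a1, Slc26a4, Foxi1 and Car2. They were found by matching gene symbols in the mouse GRCm38 annotation to the Ensembl identifiers of the expression table, and all 7 were present among its 54532 genes. The table holds RNA sequencing values of the kidneys of 15 male C57BL/6 mice, 8 weeks old at the start, in 3 groups of 5, each killed after 8 weeks. The control group (C) ate normal chow and received vehicle. The CKD model group (M) ate chow with 0.25% adenine for 4 weeks and standard chow for the remaining 4, with vehicle, and the AA group ate as the M group did and was gavaged daily with 30 mg/kg of asiatic acid, a triterpenoid of Centella asiatica, in that vehicle throughout. The study reported tubular injury and collagen deposition in kidneys of the model. Whole tissue was sequenced, so the values mix the cell types of the kidney. Values are FPKM, the fragments of a gene scaled by gene length and by a denominator per library, which here was not the plain library total.

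Intercalated cells are scattered among the principal cells of the connecting tubule and collecting duct and set the final pH of the urine. Type A cells secrete acid through a proton pump (V-ATPase) in the apical membrane and return bicarbonate to the blood through the anion exchanger Slc4a1 (AE1). Type B cells carry the pump on the other side and secrete bicarbonate into the urine through the anion exchanger Slc26a4 (pendrin). The B1, d2 and G3 subunits of the pump, encoded by Atp6v1b1, Atp6v0d2 and Atp6v1g3, are tissue-restricted versions of subunits that other cells build from Atp6v1b2, Atp6v0d1 and Atp6v1g1. Car2 encodes carbonic anhydrase II, the cytosolic enzyme that supplies protons and bicarbonate, and Foxi1 encodes the forkhead transcription factor on which the intercalated cell identity depends.

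Foxi1 is known to act on the promoters of pump and exchanger genes, so 2 of the promoters are shown, that of Atp6v1b1, the 1 member called higher in AA vs. M, and that of Slc26a4, the member with the largest difference from C in both adenine-fed groups. Each runs from 250 bases before to 50 bases after the start of the gene in RefSeq (GRCm38.p6), 5′ to 3′ on the strand of the gene, with a forkhead-like motif, TNTTTAC on either strand, in capitals. The first is at chr6:83742767-83743066 on the plus strand and the second at chr12:31559935-31560234 on the minus strand.
Atp6v1b1: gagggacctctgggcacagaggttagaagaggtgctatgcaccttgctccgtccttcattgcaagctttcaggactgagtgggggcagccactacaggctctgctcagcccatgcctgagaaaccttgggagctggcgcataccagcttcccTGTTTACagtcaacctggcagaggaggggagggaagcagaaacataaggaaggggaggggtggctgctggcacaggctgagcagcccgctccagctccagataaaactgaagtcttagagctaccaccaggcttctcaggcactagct
Slc26a4: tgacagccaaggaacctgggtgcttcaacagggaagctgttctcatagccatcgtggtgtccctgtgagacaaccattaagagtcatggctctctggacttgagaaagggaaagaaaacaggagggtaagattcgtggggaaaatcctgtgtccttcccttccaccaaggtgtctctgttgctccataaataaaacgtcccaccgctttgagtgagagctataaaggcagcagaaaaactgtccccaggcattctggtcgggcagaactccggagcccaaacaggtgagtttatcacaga
The Atp6v1b1 promoter held 1 match, TGTTTAC, beginning 98 bases before the start, and the Slc26a4 promoter held 0. Promoter sequences were matched for 4 of the 7 genes, and those of Foxi1 and Atp6v1g3 held 0 as well. Of 32851 promoters of this length, 4062 (12.4%) held the motif, and a match of letters is not evidence of binding.

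The 15 libraries held between 13647037 and 28884454 fragments, a number recovered from the smallest steps of the FPKM values that leaves a factor of 2 open, and between 2077644 and 13576622 outside the mitochondrial genome. The mitochondrial share of fragments ranged from 53.0 to 62.5% among C kidneys, from 64.0 to 86.8% among M kidneys and from 69.2 to 87.2% among AA kidneys. M mice 1 to 3 stood apart, with 10068 to 12222 genes above 0 against 18695 to 25460 in the other 12 libraries. Of 627 coding genes with an FPKM of at least 10 in every C kidney, 12, 61 and 17 were listed at 0 in M mice 1, 2 and 3, 0 in M mice 4 and 5, and 0 to 7 in the AA mice. Of 2779 coding genes with at least 3 in every C kidney, 136, 417 and 153 were at 0 in M mice 1, 2 and 3. These counts were 1 and 0 in M mice 4 and 5 and 7 to 106 in the AA mice. A 0 in these libraries is therefore given here as listed and not as absence. C mice 1 and 3 stood apart in another way, with 255 and 437 FPKM of the principal cell water channel Aqp2 against 20.6 to 29.6 in the other C mice. In whole tissue, fewer cells of a type and less RNA per cell cannot be told apart, which holds for every value that follows.

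As a set, the 7 genes had lower mean levels in M than in C kidneys, but the difference was uneven. In M vs. C, 1 of the 7 was called, Slc26a4, where 1.38% of all 21153 genes tested were called and 1.11% were called lower, and the values of Slc26a4 and Atp6v1b1 did not overlap between the groups, as was so for 3.67% of all genes in that direction. Genes counted as called if limma gave a p, adjusted by Benjamini-Hochberg across all tested genes, no greater than 0.05 and if their levels differed by 1 or more on the log2 scale. In AA vs. M, 1 of the 7 was called, Atp6v1b1, which was higher, where 12.8% of the 19798 genes tested were called and 11.7% were called higher. In AA vs. C, Slc26a4 and Foxi1 were called, both lower, where 19.8% of the 21898 genes tested were called and 9.61% were called lower, and the values of Slc26a4 and Slc4a1 did not overlap, as was so for 12.5% of all genes in that direction. The median log2 fold change of the 7 was −0.64 for M vs. C, 0.18 for AA vs. M and −0.43 for AA vs. C, beside −0.12, 0.17 and 0.09 over all genes tested. All 7 fitted values were below 0 in M vs. C, as were 67.9% of all genes, and all 7 in AA vs. C, as were 43.7%, except that Atp6v0d2 and Car2 turned to 0.039 and 0.019 in AA vs. C with each library centred on its median. With each library scaled to the same total, mitochondrial genes included (TPM), 6 of the 7 were called in M vs. C (all but Atp6v0d2), 0 in AA vs. M and 7 in AA vs. C, with the median of all genes at −0.58, 0.12 and −0.39. Of all genes tested, 1609 of 21153, 422 of 19798 and 6785 of 21898 were called with TPM, in the same order. M vs. C and AA vs. C share the C kidneys, as AA vs. M and M vs. C share the M kidneys.

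**Figure D1:**
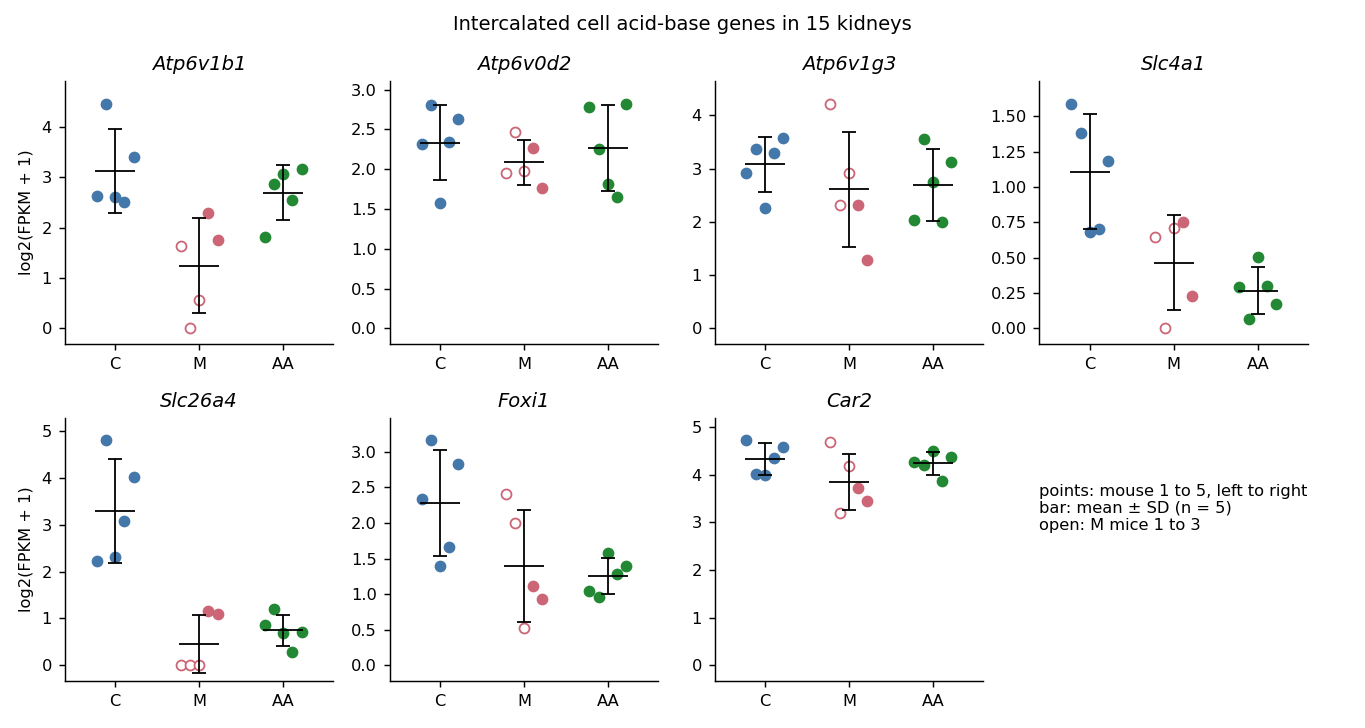
Level of each of the 7 genes, log2(FPKM + 1) on the vertical axis, in the C, M and AA groups, with 1 point per kidney and the mean ± SD (n = 5) as a bar; open points are M mice 1 to 3, whose libraries held the fewest genes above 0. Slc26a4 lies above 2 in every C kidney and below 1.3 in every M and AA kidney, while Car2, Atp6v0d2 and Atp6v1g3 overlap across the groups.

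Pendrin showed the largest difference of the 7 in M vs. C and AA vs. C (Slc26a4, ENSMUSG00000020651, chr12:31519827-31559969, minus strand). Its FPKM was 3.67, 27.0, 3.98, 7.50 and 15.3 in C mice 1 to 5. M mice 1, 2 and 3 were listed at 0, and M mice 4 and 5 had 1.23 and 1.12. The AA kidneys had 0.803, 1.28, 0.604, 0.219 and 0.639. Every M and AA kidney was below the lowest C kidney, and 4 of the 5 AA kidneys lay within the range of the M kidneys, with AA mouse 2 just above M mouse 4. The log2 fold change was −2.84 in M vs. C (SE 0.50, limma adjusted p = 0.0225), −2.55 in AA vs. C (SE 0.45, limma adjusted p = 0.00174) and 0.30 in AA vs. M (SE 0.29, limma adjusted p = 0.522). Behind these values stood 366 to 3375 recovered fragments in the C kidneys, 112 and 109 in M mice 4 and 5, and 14 to 36 in the AA kidneys.

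The M vs. C call of Slc26a4 was kept in 6 of 10 fits with 1 library left out. Without M mice 1 to 3 the log2 fold change was −2.17 with an adjusted p of 0.226 by limma, against M mice 4 and 5 alone, and leaving out C mouse 5, M mouse 1, M mouse 2 or M mouse 3 alone gave adjusted p values of 0.0738, 0.0554, 0.0633 and 0.0768 with log2 fold changes of −2.66 for the first and −2.73 for each of the others. In AA vs. C the call was kept with any 1 library left out, with log2 fold changes from −2.81 to −2.17. C mice 1 and 3, the 2 kidneys high in Aqp2, were also the 2 lowest C kidneys in Slc26a4. Without them the log2 fold change was −3.52 for M vs. C and −3.23 for AA vs. C, and both were called.

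Slc4a1, the type A exchanger (AE1, ENSMUSG00000006574, chr11:102348824-102366203, minus strand), was the lowest of the 7 genes in 12 of the 15 kidneys, counting a kidney in which several were listed at 0. The FPKM of the C kidneys was 2.01, 1.60, 0.603, 0.628 and 1.28. The M kidneys had 0.564, 0, 0.632, 0.683 and 0.170, and the AA kidneys 0.225, 0.0453, 0.422, 0.228 and 0.127. C mice 3 and 4 overlapped with the upper M kidneys, whereas every AA kidney was below every C kidney. The log2 fold change was −0.64 in M vs. C (SE 0.27, limma adjusted p = 0.261), −0.20 in AA vs. M (SE 0.17, limma adjusted p = 0.463) and −0.84 in AA vs. C (SE 0.20, limma adjusted p = 0.00814). The last passed on its adjusted p but lay under the 2-fold minimum, which a pseudocount of 1 makes hard to reach for a gene at this level. With a pseudocount of 0.1 it was −2.09 and was called, with an adjusted p of 0.00809 by limma. At most 42 recovered fragments lay behind the value of any AA kidney or of M mice 1 to 3, and 2 behind that of AA mouse 2.

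Red cell precursors also make Slc4a1, and the table does not separate the renal and erythroid transcripts. Of 12 red cell genes, Car1, the carbonic anhydrase of red cells, was listed at 0 in all 15 kidneys, and none of the 12 was called by limma in M vs. C or AA vs. M, where 3 and 1 had an unadjusted p under 0.05. Of the 7 tested, 2 were called lower in AA vs. C, both alpha globins, where 9.61% of all genes were called lower. Hba-a1 had log2 fold changes of −2.03 for M vs. C and −2.56 for AA vs. C, with limma adjusted p values of 0.0556 and 0.0029. The beta globin Hbb-bs, the other gene high in this list, had −0.54 and −0.99 and passed in neither. The summed FPKM of the 12 genes was 31.2 to 213 in C, 13.3 to 32.7 in M and 7.55 to 41.3 in AA kidneys, and these ranges overlap. C mouse 1 had the highest Slc4a1 and the lowest sum of the C kidneys. The count of red cell genes called in M vs. C was 1 without C mouse 1 and 2 without M mouse 5. It was above 0 in 7 of 15 other settings, with 4 under TPM as the highest. The part of red cells in the Slc4a1 values was not tested.

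Atp6v1b1 had its lowest levels in M kidneys (B1 subunit, ENSMUSG00000006269, chr6:83742990-83758855, plus strand). B1 belongs to the catalytic head of the pump. Its FPKM was 5.15, 20.96, 5.10, 4.68 and 9.48 in the C kidneys, 2.09, 0, 0.471, 3.90 and 2.38 in the M kidneys and 2.51, 6.28, 7.38, 4.80 and 7.90 in the AA kidneys. All M kidneys were below the lowest C kidney, and 4 of the 5 AA kidneys were above the highest M kidney. The log2 fold change in AA vs. M was 1.44 (SE 0.44, limma adjusted p = 0.0379), which was called. In M vs. C it was −1.87 (SE 0.49, limma adjusted p = 0.0842) and was not called. The difference was −0.43 in AA vs. C (SE 0.39, limma adjusted p = 0.405).

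Without M mice 1 to 3 together, the kidneys with few genes above 0, the Atp6v1b1 log2 fold change of AA vs. M was 0.66 (limma adjusted p = 0.316) and that of M vs. C −1.09 (limma adjusted p = 0.468). With 1 library left out, AA vs. M passed in 3 of 10 fits, and adjusted p lay above 0.05 without M mouse 1, 2 or 3 or without AA mouse 2, 3, 4 or 5, with 0.0941 as the highest value and log2 fold changes from 1.13 to 1.54. The M vs. C value passed without M mouse 5, with an adjusted p of 0.0483 by limma.

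The other pump subunits of the set, Atp6v0d2 and Atp6v1g3, were called in none of the 3 comparisons. Atp6v0d2 (ENSMUSG00000028238, chr4:19876841-19922605, minus strand) encodes the d2 subunit, which joins the head of the pump to its membrane ring. Its FPKM was 3.99, 6.02, 1.99, 4.06 and 5.17 in C, 2.86, 4.51, 2.93, 3.82 and 2.41 in M and 5.89, 3.76, 2.50, 2.13 and 6.08 in AA kidneys. The 3 groups overlapped throughout, with log2 fold changes of −0.25 ± 0.30 in M vs. C, 0.18 ± 0.32 in AA vs. M and −0.07 ± 0.31 in AA vs. C (± SE), none of which passed. Osteoclasts and macrophages also express Atp6v0d2. Of 12 markers of these cells 3 were called higher in M vs. C, where 0.269% of all genes were called higher, including the lysozyme gene Lyz2 and the protease gene Ctss. This count was 0 without C mouse 5 or without M mice 1 to 3, 1 without M mouse 1, 2 or 3 alone and 5 without M mouse 5. Their summed FPKM was 20.6 to 92.4 in C, 130 to 454 in M and 120 to 174 in AA kidneys. A total of 4 were higher in AA vs. C (10.2% of all genes), with the osteoclast protease gene Ctsk at a log2 fold change of 1.83, and 1 was lower, the receptor gene Csf1r at −1.52. In M vs. C Ctsk had 2.03 (limma adjusted p = 0.0553), was not called, and was higher in every M than in every C kidney. Of the 12 fitted values of M vs. C, 2 were below 0, Csf1r at −1.01 and Acp5 at −1.10. Dcstamp and Ocstamp, which define fused osteoclasts, stayed below 1 FPKM in all kidneys. Acp5, another osteoclast gene, was listed at 0 in M mice 1 to 3. It had 2.84 and 4.70 FPKM in M mice 4 and 5, 1.36 to 5.65 in C kidneys and 0 to 3.21 in AA kidneys. The part of these cells in the Atp6v0d2 values was not tested.

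Atp6v1g3 (ENSMUSG00000026394, chr1:138273738-138289462, plus strand), the G3 subunit of the stalk, had FPKM of 6.58, 9.35, 3.77, 8.80 and 10.9 in C, 17.6, 3.96, 6.59, 3.96 and 1.43 in M and 3.07, 10.7, 5.72, 2.99 and 7.73 in AA kidneys. Both the highest and the lowest kidney were M kidneys. The log2 fold change was −0.47 in M vs. C (SE 0.48), 0.08 in AA vs. M (SE 0.50) and −0.39 in AA vs. C (SE 0.35), with limma adjusted p values of 0.636, 0.933 and 0.391.

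Foxi1 (ENSMUSG00000047861, chr11:34204338-34208089, minus strand), the transcription factor of the set, lay at 4.07, 7.96, 1.64, 2.16 and 6.10 FPKM in C kidneys. In M kidneys it was 4.31, 3.00, 0.437, 1.17 and 0.897, and in AA kidneys 1.06, 0.941, 1.98, 1.42 and 1.63. The C and M groups overlapped, with M mice 1 and 2 inside the C range, and AA mouse 3 lay above the lowest C kidney. The log2 fold change was −1.03 in AA vs. C (SE 0.33, limma adjusted p = 0.0285), −0.88 in M vs. C (SE 0.44, limma adjusted p = 0.339) and −0.15 in AA vs. M (SE 0.37, limma adjusted p = 0.827). The AA vs. C call stood at the edge of both thresholds, and was lost without C mouse 2 or 5 or AA mouse 1 or 2, where log2 fold changes were −0.81, −0.89, −0.98 and −0.96 and the highest adjusted p was 0.0724. It was also lost with the libraries centred on their medians (−0.92).

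Car2 (ENSMUSG00000027562, chr3:14886273-14900770, plus strand) was the highest of the 7 genes in 14 of the 15 kidneys, C mouse 2 with its high Slc26a4 being the exception. Principal and proximal tubule cells also express carbonic anhydrase II. Its FPKM was 19.5 ± 4.64 in C, 14.4 ± 6.60 in M and 18.1 ± 3.02 in AA kidneys (SD, n = 5 in each). M mice 2 and 5 were the lowest kidneys, the groups overlapped, and the log2 fold change was −0.49 in M vs. C (SE 0.33), 0.40 in AA vs. M (SE 0.34) and −0.09 in AA vs. C (SE 0.22), with limma adjusted p values of 0.484, 0.449 and 0.767. Among the other members, the order of levels changed with the group. In C kidneys the group means of Slc26a4 (11.5), Atp6v1b1 (9.07) and Atp6v1g3 (7.87) were followed by Foxi1 (4.38) and Atp6v0d2 (4.25), and each neighbour in this order overlapped the next. In AA kidneys Atp6v1g3 (6.04), Atp6v1b1 (5.77) and Atp6v0d2 (4.07) were followed by Foxi1 (1.41) and Slc26a4 (0.709), and the values of Atp6v0d2 did not overlap those of Foxi1.

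**Figure D2:**
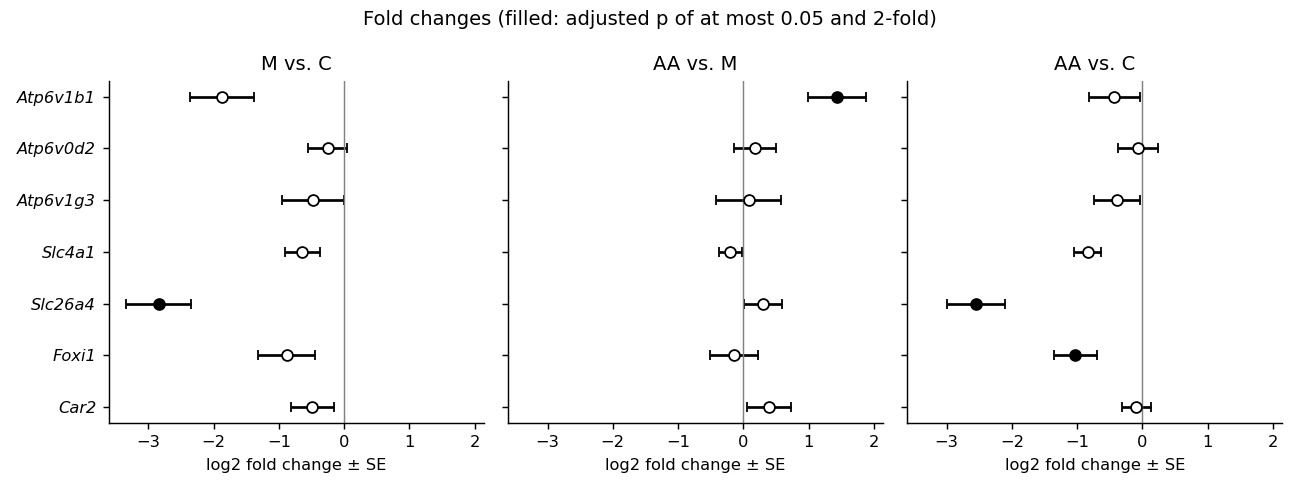
Log2 fold change ± SE (horizontal axis) of each of the 7 genes (vertical axis) in the 3 comparisons, from limma on log2(FPKM + 1), with filled points for called genes. Slc26a4 is the only filled point in M vs. C, at −2.84, Atp6v1b1 the only one in AA vs. M, at 1.44, and Slc26a4 and Foxi1 are filled in AA vs. C, at −2.55 and −1.03.

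Differences between 2 genes in the same kidney do not depend on the library size, apart from the pseudocount, and were tested for 4 pairs in the 3 comparisons, 12 tests in all, by exact permutation (two-sided, Benjamini-Hochberg adjusted). None passed, the smallest p that 5 against 5 kidneys allow being 0.00794. When adjusted over 12 tests, 1 test at that p alone stays above 0.05. A single difference could thus not pass, even with complete separation of the groups. Atp6v1b1 minus its counterpart of all cells, Atp6v1b2, was 0.39 ± 0.91 in C, −1.32 ± 0.95 in M and −0.15 ± 0.56 in AA kidneys on the log2 scale (SD, n = 5 in each). The difference was −1.71 in M vs. C (exact permutation p = 0.0238, adjusted p = 0.0952) and 1.17 in AA vs. M (exact permutation p = 0.0556, adjusted p = 0.167). Without M mice 1 to 3 these were −0.78 and 0.24. Atp6v1b2 itself overlaps the gene Slc18a1 on the other strand, and the reads of overlapping genes may not have been told apart.

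The exchangers of the 2 cell types were set against each other in the same way. Slc4a1 minus Slc26a4 was −2.18 ± 1.09 in C, 0.02 ± 0.67 in M and −0.48 ± 0.44 in AA kidneys (log2 scale, SD, n = 5 in each). It was higher by 2.20 for M vs. C and by 1.71 for AA vs. C, in both with an exact permutation p of 0.0159 and an adjusted p of 0.0952. In M and AA kidneys both genes lay at or below 1.28 FPKM, where the pseudocount of 1 draws their difference towards 0. With a pseudocount of 0.1 the differences were 3.38 for M vs. C and 1.48 for AA vs. C, and that of AA vs. M went from −0.49 to −1.89. Of the 2 remaining pairs, Atp6v0d2 minus Atp6v0d1 differed by 0.24, 0.15 and 0.39, and Atp6v1g3 minus Atp6v1g1 by 0.07, 0.16 and 0.23, in the order M vs. C, AA vs. M, AA vs. C, with exact permutation p from 0.365 to 0.889. In 7 other genes, 24.0% of the 31-base words of Atp6v1g1 recur, so its level is uncertain. The levels of the members themselves are not affected by such sharing, with at most 0.41% of their words in common with other genes and no overlapping gene.

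**Figure D3:**
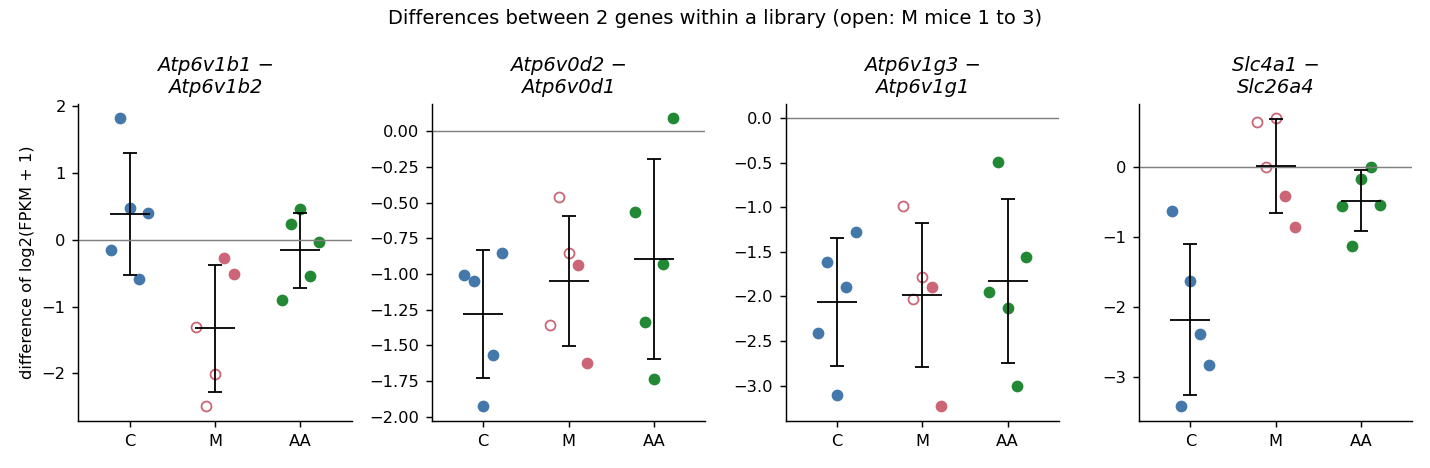
Difference of log2(FPKM + 1) between 2 genes of the same kidney (vertical axis) in the C, M and AA groups for 4 pairs, with 1 point per kidney, the mean ± SD (n = 5) as a bar and open points for M mice 1 to 3. Slc4a1 minus Slc26a4 lies below −0.6 in all C kidneys and above −1.2 in all M and AA kidneys, and in the first pair the 3 lowest points are M mice 1 to 3.

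Other genes of intercalated cells gave the context of these 7. Of 14, 5 were called lower and 0 higher in M vs. C, against 1.11% of all genes called lower, and all 14 fitted values were below 0, with a median of −1.07. This count was not stable. It was 0 without C mouse 2, C mouse 5, M mouse 1, M mouse 2 or M mouse 3, 1 without C mouse 4, 0 with no filter on low values and 8 with TPM. Slc4a9, the basolateral exchanger of type B cells, had a log2 fold change of −4.12, the ammonia channel genes Rhcg and Rhbg −3.74 and −1.24, the insulin receptor-related receptor gene Insrr, a sensor of alkali, −2.85, and the pump subunit gene Atp6v1c2 −2.79. The same 5 were called lower in AA vs. C, where 9.61% of all genes were called lower and the count stayed at 4 to 6 with 1 library left out. Slc4a9 was at −5.07, Rhcg at −4.54, Insrr at −3.39, Atp6v1c2 at −2.91 and Rhbg at −1.10. Of the 14 fitted values, 12 were below 0 in AA vs. C and 6 in AA vs. M. Slc26a7 and Kit were above 0 in AA vs. C, at 0.56 and 0.55, and had 0.63 and 0.94 in AA vs. M. Both stayed under the 2-fold minimum and were not called. The AA values of Slc26a7, at most 1.15 FPKM, lay above all C and M values (limma adjusted p = 0.00818 and 0.0125). In AA vs. M the only one called was Oxgr1, the α-ketoglutarate receptor of type B cells, which was higher (log2 fold change 1.05, limma adjusted p = 0.0128). That is 1 of 14 beside the 12.8% of all genes called, and it was 0 without M mouse 1, M mouse 2 or AA mouse 2 and 2 without M mouse 4, M mouse 5 or AA mouse 5. This count differed from 1 in 10 of 14 other settings, from 0 to 3, the highest with library quality weights. The FPKM of Slc4a9 was 19.6 to 167 in C kidneys, 13.8 and 9.49 in M mice 4 and 5, 0.441, 0 and 0 in M mice 1 to 3 and at most 1.40 in AA kidneys. The summed FPKM of the 14 was 63.3 to 369 in C kidneys, 1.69 to 45.9 in M kidneys, with 30.2 to 45.9 in M mice 4 and 5, and 11.7 to 20.4 in AA kidneys.

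**Figure D4:**
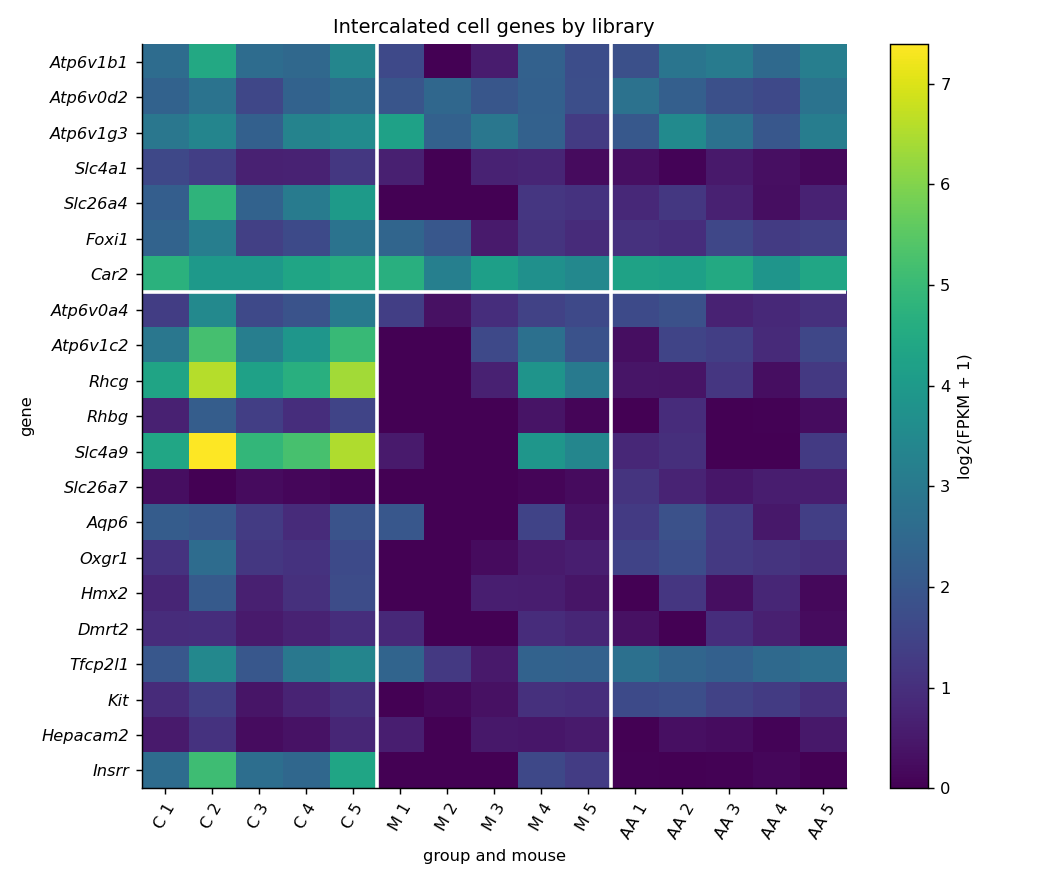
Level of 21 intercalated cell genes as colour, log2(FPKM + 1), with the 7 acid-base genes above the white line and 14 others below it (vertical axis) in each of the 15 kidneys (horizontal axis, by group and mouse). Rhcg, Slc4a9, Insrr, Atp6v1c2 and Slc26a4 are brighter in the C kidneys than in M mice 1 to 3 and the AA kidneys, while Car2 keeps a similar colour throughout.

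The pump subunits listed here as those of all cells, the acid-base genes of other segments and the neighbouring principal cells were compared in the same fits. Which cells of these kidneys carried each subunit was not tested. Of 18 subunits of all cells limma called none in M vs. C or AA vs. M, where 3 and 1 had an unadjusted p under 0.05, and 3 were lower in AA vs. C. These were Atp6v0b (−2.58), a part of the membrane ring, and Tcirg1 (−1.95) and Atp6v0a1 (−1.61), which encode versions of the a subunit. The count in M vs. C was 2 without M mouse 5 and 4 with TPM, and that in AA vs. M 1 without AA mouse 1. The AA vs. M count was also above 0 in 5 of 14 other settings, with 3 under library quality weights as the highest. Atp6v1f and Atp6v1g1, the most abundant of the 18, were not called, at −0.45 and −0.55 for M vs. C and −0.87 and −0.62 for AA vs. C. Of 12 acid-base genes of other segments 2 were lower in M vs. C, the proximal sodium-proton exchanger gene Slc9a3 (−2.28) and the membrane carbonic anhydrase gene Car14 (−1.29). In AA vs. M 10 of the 12 were tested, Car14 not among them, and none was called (1 at an unadjusted p under 0.05). In AA vs. C 5 were lower, including Slc9a3 (−2.68), Car4 (−1.84) and the glutamine transporter gene Slc38a3 (−1.83). Of all genes, 1.11% were called lower in the first comparison and 9.61% in the last. The M vs. C count was 0 without C mouse 4, C mouse 5, M mouse 1, M mouse 2 or M mouse 3, 1 without C mouse 2 or M mouse 4, 4 without M mouse 5 and 6 with TPM. That of AA vs. M was 1 without M mouse 5 or AA mouse 3 and 2 without M mice 1 to 3. Pck1 and Glud1, which serve ammonia production and gluconeogenesis and were the most abundant of the 12, had −1.71 and 0.00 in M vs. C and were not called.

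Principal cells share the collecting duct with the intercalated cells. Of their markers, 9 of 10 were tested and 3 were called lower in M vs. C (Aqp2 −4.15, Fxyd4 −3.24 and Hsd11b2 −2.84), 0 were called in AA vs. M (3 at an unadjusted p under 0.05) and 4 were lower in AA vs. C, where Scnn1b, a subunit of the sodium channel, joined them at −1.85. Of all genes, 1.11% were called lower in M vs. C, 12.8% were called in AA vs. M and 9.61% were called lower in AA vs. C. The M vs. C count was 0 without C mouse 5, M mouse 1, M mouse 2 or M mouse 3 and 6 with TPM. That of AA vs. M was 1 without M mouse 1 or M mouse 5 and 2 with voom on recovered fragments. Their summed FPKM was 369 to 553 in C mice 1 and 3 and 41.2 to 93.9 in the other C kidneys, beside 2.39 to 19.4 in M and 8.60 to 24.0 in AA kidneys. Most of the sum in C mice 1 and 3 was Aqp2, at 255 and 437. Fxyd4 was also higher there than in the other C kidneys, but Scnn1b and Hsd11b2 were highest in C mouse 2. Scnn1b was 1.71 and 2.12 in C mice 1 and 3 and 15.1 in C mouse 2, and Hsd11b2 was 6.97, 8.28 and 36.1. The part of a smaller share of collecting duct in the values of the 7 genes was not tested.

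**Figure D5:**
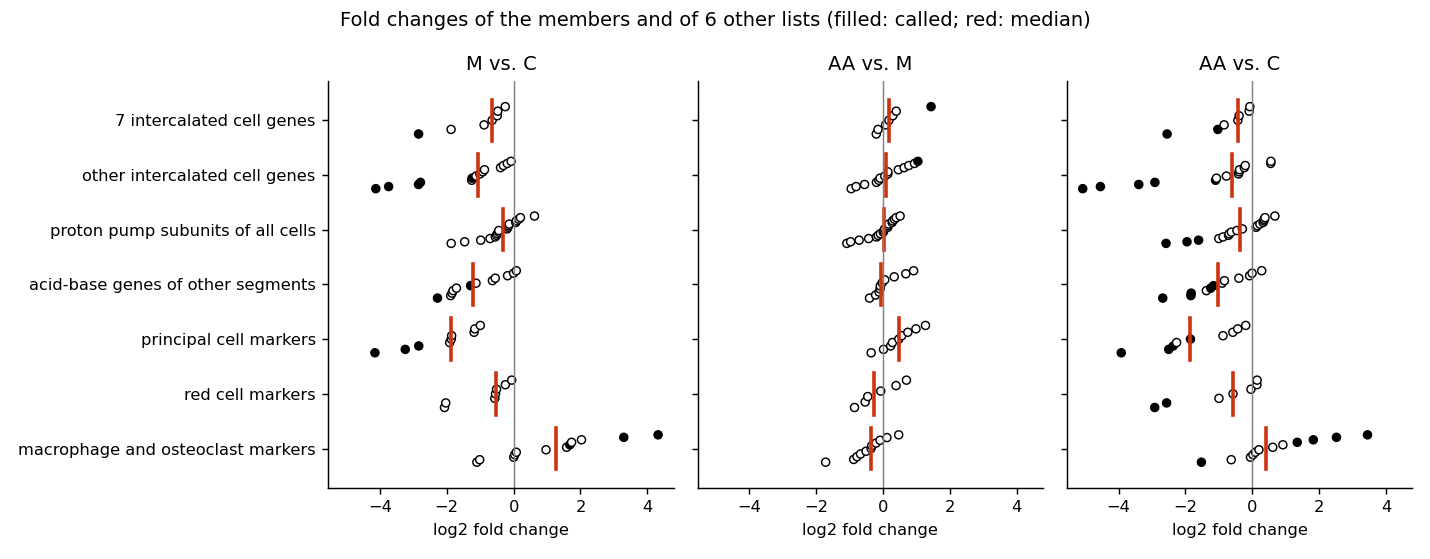
Log2 fold changes (horizontal axis) of the 7 genes and of 6 other lists (vertical axis) in the 3 comparisons, with 1 point per tested gene, filled where called, and the list median as a red line. The medians in M vs. C are −0.64 for the 7 genes, −1.07 for the other intercalated cell genes, −1.87 for principal cell markers and 1.28 for macrophage and osteoclast markers, and in AA vs. M few points are filled.

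The genes whose levels followed each member most closely were found among 10982 genes by Pearson's r of log2(FPKM + 1) over the 15 kidneys, which share their library sizes and their group differences, so these values describe and are not tested. For Slc26a4 they were Cyp2j9, Slc22a30 and Slc22a8 (r = 0.985, 0.980 and 0.978), an arachidonic acid epoxygenase family gene and 2 genes of organic anion transporters. The mean FPKM of Slc22a8 was 33.3 in C, 1.28 in M and 1.45 in AA kidneys. For Atp6v1b1 they were Cyp2c23, Mep1a and Tmem8 (r = 0.952, 0.939 and 0.934), and the mean FPKM of Mep1a, a brush border protease gene, was 17.2 in C, 4.33 in M and 10.4 in AA kidneys. Slc4a1 was followed by Mep1b (r = 0.867), Bend5 (0.829) and Dnase1 (0.829), and Foxi1 by Slc25a3 (r = 0.868), Aadat (0.867) and Cyc1 (0.861). Atp6v1g3 was closest to Nudt4 (r = 0.903), Atp5mpl (0.863) and Uqcrfs1 (0.851), of which the latter 2 encode parts of the respiratory chain and the ATP synthase, and Car2 to Acadsb (r = 0.878), Cetn2 (0.868) and Cycs (0.856). Atp6v0d2 had the weakest match, with Bcl7b (r = 0.726), Slc30a5 (0.690) and Kidins220 (0.672). Among the 7 themselves, r was highest between Atp6v1b1 and Slc26a4 (0.716) and between Slc4a1 and Slc26a4 (0.697), and lowest between Atp6v0d2 and Car2 (0.156).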

How the data were processed

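RNA was sequenced from 1 kidney each of 15 mice, and labels placed 5 in each of the groups C, M and AA. The study's groups were larger than the 5 mice sequenced, and its low dose of asiatic acid was not analysed here. Poly-A RNA was read as 150 bp paired ends. Per the submitters' notes and the study's methods, the authors trimmed reads with fastp, aligned them to mm10 with HISAT2 2.0.5, counted them on genes with featureCounts 1.5.0-p3 and deposited FPKM. The setting for strand is not given in the sources used here. The denominator behind the deposited FPKM was 0.518 to 2.30 times the recovered fragments of a library and 3.19 to 5.03 times those outside the mitochondrial genome, so the deposited FPKM were not divided by plain library totals. The first ratio was 1.41 to 2.30 in C, 0.647 to 1.57 in M and 0.518 to 1.48 in AA libraries. The second was 3.19 to 4.89, 4.37 to 5.03 and 4.05 to 4.82 in the same order. Of FPKM standing for up to 20 fragments, 97.4 to 98.9% lay within 0.02 of a whole number.

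Symbols, positions and exon lengths came from GENCODE M21, which lacked 37 identifiers. The log2(FPKM + 1) values of the 10 libraries compared were fitted by limma 3.58.1 (R 4.3.3, lmFit followed by eBayes, trend on), for genes above 0 in at least 5 of them, and log2 fold changes are on that scale, which understates the change of low genes. The study's own test needs counts. Within-kidney differences were tested by exact permutation with scipy 1.17.1. In Python 3.11.15, numpy 2.4.6, pandas 2.3.3 and matplotlib 3.10.9 were used. The fits were tested on simulated normal values with the means and spreads of the C kidneys. That test did not cover libraries that list many genes at 0, as some of the M group do.

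The 7 genes and the 6 other lists (78 genes) were chosen with earlier results of these data known. Named genes beyond the 7 are, per list, those called in any comparison (the 4 largest changes if more) and the 2 most abundant, the partners of the 4 pairs and the 3 genes closest to each member. Rhbg, Oxgr1, Slc26a7, Kit, Csf1r, Car1, Klf1, Acp5, Dcstamp and Ocstamp were named after their values were seen. Alternatives were a pseudocount of 0.1, other filters and scalings, all 15 libraries in one fit, quality weights, a replicate block, no trend, voom on recovered fragments, leaving out M mice 1 to 3 and leaving out each library. Centring within 20 GC bins and leaving out C mice 1 and 3 were chosen after the data were seen.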

Additional observations from a re-analysis of the deposited data

How the results depend on the processing

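The call of Slc26a4 in AA vs. C held under every setting run, and its M vs. C direction did. Its M vs. C call was lost without a filter on low values (limma adjusted p = 0.0675) and without M mice 1 to 3. Of 507 alternative values of the 7 genes, 436 kept their direction and their side of the thresholds. The cause of the other changes was not tested, beyond TPM counting mitochondrial genes in the library total.

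The same mouse number in different groups did not mark paired kidneys. Deviations from the group mean correlated between −0.23 and 0.17 for kidneys of the same number, and not every kidney correlated best with its own. The replicate block gave 1, 0 and 1 called members for the 3 comparisons in the order M vs. C, AA vs. M, AA vs. C (Atp6v1b1 and then Foxi1 lost, with limma adjusted p of 0.0591 and 0.0501), and 152, 2217 and 4345 called genes in all. Of the 7 genes, those called in M vs. C numbered 6 with TPM, 2 with all 15 libraries in one fit, and 0 with no filter or without M mice 1 to 3, where 3 and 4 had an unadjusted p under 0.05. In AA vs. M they numbered 0 with a pseudocount of 0.1, no filter, TPM, the non-mitochondrial total, quantile normalization, quality weights, voom or without M mice 1 to 3, with 1 or 2 at an unadjusted p under 0.05 in all of these but the last, which had 0. In AA vs. C they numbered 7 with TPM and 1 with no filter, centring on the median, 1 fit of all libraries, quality weights or the block. With 1 library left out the counts were 0 to 2, 0 to 1 and 1 to 2. Of all genes, 291 were called in M vs. C, 57 higher, against 33 with no filter, 448 with a mean FPKM of at least 1, 188 with quality weights, 786 in 1 fit, 0 without M mice 1 to 3 (2489 at an unadjusted p under 0.05), 1609 with TPM (31 higher), 330 with GC bins (107 higher) and 4 to 954 with 1 library left out. In AA vs. M 2533 (2321 higher) became 422 with TPM, 4007 with voom, 1656 without M mice 1 to 3 (460 higher), 2279 with quantile normalization (1584 higher) and 2230 with GC bins (1534 higher). In AA vs. C 4346 (2241 higher) became 7474 with a pseudocount of 0.1, 7729 with voom and 6785 with TPM (862 higher).

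Small log2 fold changes turned in sign. In AA vs. M these were Atp6v0d2 (−0.054 with quantile normalization, −0.23 with GC bins), Atp6v1g3 (−0.070 with the non-mitochondrial total, −0.053 with quantile normalization, −0.31 with GC bins), Slc26a4 (−0.036 with quantile normalization, −0.25 with quality weights, −0.38 without M mice 1 to 3, −0.038 with GC bins) and Foxi1 (0.12 with quality weights, 0.21 with voom, 0.23 without M mice 1 to 3). In AA vs. C they were Atp6v0d2 (0.039) and Car2 (0.019), both with centring on the median. With 1 library left out, Atp6v1g3 ranged from −0.25 to 0.48 and Foxi1 from −0.36 to 0.11 in AA vs. M, and Atp6v0d2 from −0.26 to 0.082 and Car2 from −0.18 to 0.0065 in AA vs. C. Among the pairs, Atp6v1g3 minus Atp6v1g1 was −0.033 with a pseudocount of 0.1, −0.50 without M mice 1 to 3 and −0.39 without C mice 1 and 3 in M vs. C, and −0.23 without the latter in AA vs. C. Slc4a1 minus Slc26a4 was 0.16 in AA vs. M without M mice 1 to 3. With 1 library left out, Atp6v0d2 minus Atp6v0d1 ranged from −0.10 to 0.36 in AA vs. M, and Atp6v1g3 minus Atp6v1g1 from −0.19 to 0.39, −0.18 to 0.45 and −0.10 to 0.53 across the 3 comparisons. Below about 100 recovered fragments, as for Slc26a4 and Slc4a1 in AA kidneys, counting error adds to the spread between kidneys.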
